A study of Homo sapiens with 6 samples.

Results

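CDR1 and LINC00632 are a pair of overlapping genes on opposite strands of chromosome X, and their levels were followed in 22RV1 cells, an established human prostate cancer cell line. Both were found in the gene table by Ensembl identifier, ENSG00000184258 for CDR1 and ENSG00000203930 for LINC00632, which makes 2 of the 17811 genes listed. The pair was chosen because its values differed widely between the groups, so its levels are described here with no test. Poly(A) RNA was sequenced from 3 stable lines with 2 libraries each. The control line expresses shLuc, a short hairpin directed at luciferase, and the others express shIMPA1, directed at IMPA1, or shIMPDH2, directed at IMPDH2. All 3 groups carry a hairpin and grew in the same serum-containing medium. IMPA1 encodes inositol monophosphatase, which frees inositol from inositol phosphates, and IMPDH2 commits purine nucleotides to the guanine branch. Each hairpin is represented by 1 stable line as far as the labels say, and nothing in them tells whether both libraries of a line were grown separately, so p-values reflect the spread among these 6 libraries alone, and that spread may be technical.

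The locus is best known for a circular RNA. CDR1 was named as an antigen gene of paraneoplastic cerebellar degeneration, and the opposite strand makes CDR1as (ciRS-7), a circle spliced out of a long transcript that LINC00632 represents. The circle is abundant in brain, carries many sites for the microRNA miR-7, and holds a site that the microRNA miR-671 cuts. A circle has no poly(A) tail, so poly(A) libraries do not measure it directly, and what follows concerns reads assigned to the 2 gene models. The identifier of CDR1-AS as a gene of its own was not among the rows analysed.

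In GENCODE release 29 on GRCh38, LINC00632 runs on the plus strand of chromosome X from 140709562 to 140793215, with 25 transcripts whose exons merge into 9 blocks of 28876 bases in all. CDR1 is a single exon of 789 bases on the minus strand, from 140783578 to 140784366. All of these 789 bases lie inside the last exon block of LINC00632, of whose exonic bases they make up 2.73%. The sources used here give neither the annotation release behind the counts nor the use of strand, so reads from CDR1 and from the opposite strand cannot be told apart with certainty.

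The sequences that make this locus a miR-7 partner are shown first, as RefSeq (microRNAs, assembly GRCh38.p14) and the GRCh38 sequence give them. The capitals in the microRNAs mark the seed, bases 2 to 8, which pairs with a target.
hsa-miR-7-5p: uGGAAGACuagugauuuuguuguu
hsa-miR-671-5p: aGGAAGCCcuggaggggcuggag

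The match to the miR-7 seed, GTCTTCC, occurs 69 times in the plus-strand exonic sequence of LINC00632-210, the transcript with the most matches. The 69 sites span 2128 bases, from 140782515 to 140784642, with a median spacing of 18 bases, and 38 of them lie over the CDR1 exon. Only 5 of the 25 LINC00632 transcripts include CDR1 exon bases, and these hold between 53 and 69 matches each. The other 20 hold 0 matches, and the CDR1 transcript itself, read from the minus strand, also holds 0. Among transcripts of other genes the highest count was 37, in HRNR (9623 bases). Of the 35877 transcripts of at least 1 kb and under 2 kb, 12.4% held at least 1 match, and the highest count among those outside LINC00632 was 15.

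The match outside the seed was short at most sites: over the 24 bases of miR-7, 9 to 17 positions were complementary without gaps, with a median of 11. Pairs of G with U and pairing with bulges were not counted. The sites printed are the best paired by this count, with 17 and 15 positions, and 1 of those with 14. They pair more than most, and capitals mark the seed match.
chrX:140782515-140782538 (plus strand): gagttctaaattacaaGTCTTCCa
chrX:140784550-140784573 (plus strand): ttccaacaactacccaGTCTTCCa
chrX:140783330-140783353 (plus strand): ttccaagaagctccaaGTCTTCCa
The best ungapped match to miR-671-5p in the exons of LINC00632 pairs at 19 of 23 positions, shown in capitals, and lies outside the CDR1 exon, on the side with the higher coordinates.
chrX:140784460-140784482 (plus strand): tTCCAGCatCTCCAGGGCTTCCa
A sequence match is a description and was not measured here as binding or cutting.

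**Figure D1:**
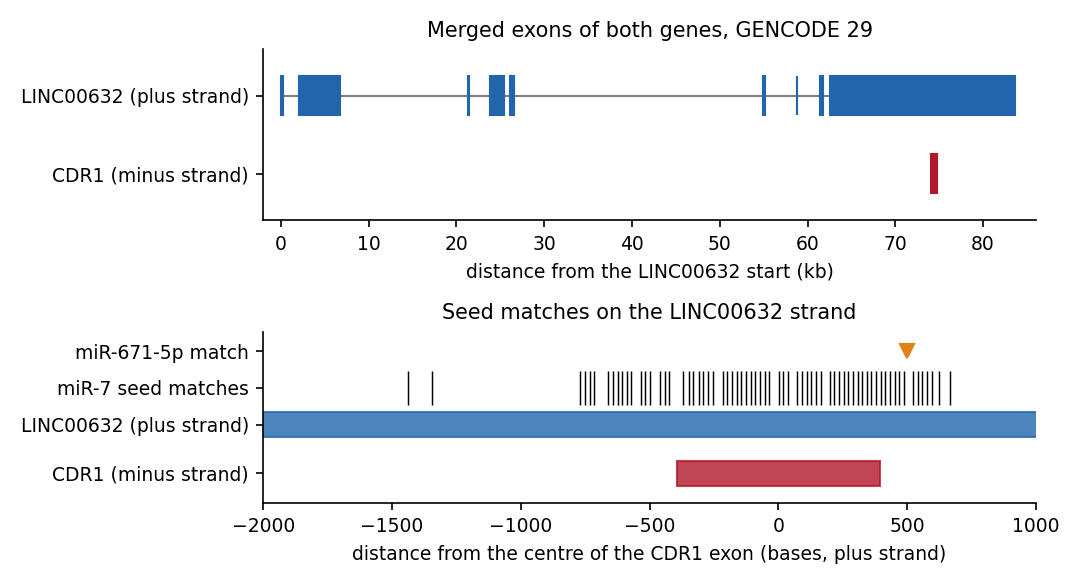
Map of the locus from GENCODE 29. The upper panel draws merged exons of LINC00632 (blue, plus strand) and CDR1 (red, minus strand) against distance from the LINC00632 start in kb, and the lower panel draws the 69 miR-7 seed matches (black lines) and the best miR-671-5p match (orange) against distance in bases from the centre of the CDR1 exon. All but 2 of the miR-7 matches crowd over and around the CDR1 exon, and the miR-671-5p match lies 488 to 510 bases from that centre, inside the crowded stretch.

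The LINC00632 start window that holds most annotated transcript starts is shown as well, with its first 50 transcribed bases in capitals. Its use in these cells was not measured. It is 1 of 3 start windows that RefSeq gives for the gene, each of 300 bases, and lies at chrX:140709509-140709808 on the plus strand, and 15 of the 25 GENCODE transcripts start inside it.
LINC00632 start window: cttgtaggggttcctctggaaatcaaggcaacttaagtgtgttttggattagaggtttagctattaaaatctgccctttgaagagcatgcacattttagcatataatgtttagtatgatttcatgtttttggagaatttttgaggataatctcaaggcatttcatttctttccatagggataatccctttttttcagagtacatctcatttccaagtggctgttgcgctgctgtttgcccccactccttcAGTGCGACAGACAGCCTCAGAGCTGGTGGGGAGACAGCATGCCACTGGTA
Its GC content was 42.0%, against a median of 58.7% over 35116 RefSeq windows of the same length, and it held 2 CG dinucleotides against a median of 14. Neither TATAAA, which occurs on either strand in 11.5% of all windows, nor CCAAT, which occurs in 34.6%, was found on either strand of it. The window at chrX:140733628-140733927, in which 1 GENCODE transcript starts, also held neither motif. The window at chrX:140782931-140783230, beside the CDR1 exon, in which 0 GENCODE transcripts start, held 3 TATAAA and 5 CCAAT matches over both strands and 2 miR-7 seed matches.

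Over the listed genes, a library had 20828900 to 27773294 reads, with the shIMPDH2 libraries shallowest, at 20828900 and 22442454. The targeted genes were lowered moderately. IMPA1 had normalized read counts of 1621 and 1331 in the control and of 957 and 1101 under its hairpin (log2 difference -0.52, limma adjusted p = 0.0145), and this call was lost without shLuc replicate 1 (adjusted p = 0.159). IMPDH2 stood at 4270 and 5032 in shLuc and at 2932 and 3166 in shIMPDH2 (-0.61, limma adjusted p = 0.00999), a call lost without shLuc replicate 2 or either shIMPDH2 library.

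CDR1 was counted at 313 and 353 reads in the shLuc libraries, 38 and 37 in the shIMPA1 libraries, and 9 and 7 in the shIMPDH2 libraries. After division by the size factor of each library, the normalized read counts were 282 and 309 in shLuc, 34.1 and 31.9 in shIMPA1, then 10.4 and 7.87 in shIMPDH2. The means were 295 ± 19.2, 33.0 ± 1.54 and 9.14 ± 1.79 (SD, n = 2 each). The 3 groups did not overlap in normalized count. The lower shLuc library held 8.26 times the count of the higher shIMPA1 library. The lower shIMPA1 library held 3.07 times that of the higher shIMPDH2 library. How many of all genes have groups apart in this way was not counted, and the pair was chosen for its differences. In bulk RNA, fewer cells that express the locus and less RNA per cell cannot be told apart. In rank among the listed genes of a library, CDR1 went from the percentiles 44.8 and 46.0 in shLuc to 18.9 and 18.8 in shIMPA1, and to 5.44 and 3.68 in shIMPDH2.

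LINC00632 was counted at 301 and 235 reads in the control libraries, 44 and 29 in those of shIMPA1, and 13 and 7 in those of shIMPDH2. The normalized read counts were 271 and 206, then 39.5 and 25.02, then 15.0 and 7.87, with means of 238 ± 46.2, 32.3 ± 10.2 and 11.5 ± 5.05 (SD, n = 2 each). The normalized counts of these groups did not overlap either, but the libraries of a group lay further apart than for CDR1. How many of all genes have groups apart in this way was not counted, and the pair was chosen for its differences. The higher library of a group held 1.32, 1.58 and 1.91 times the lower for LINC00632 in shLuc, shIMPA1 and shIMPDH2, against 1.096, 1.07 and 1.32 times for CDR1. The gap between the knockdowns was the narrowest, with the lower shIMPA1 library at 1.67 times the higher shIMPDH2 library. Both genes passed the filter on low values, which asks for a normalized count of at least 10 in at least 2 libraries. Every shLuc and shIMPA1 library reached that value for both genes, and so did shIMPDH2 replicate 1. In shIMPDH2 replicate 2, both lay under that value.

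**Figure D2:**
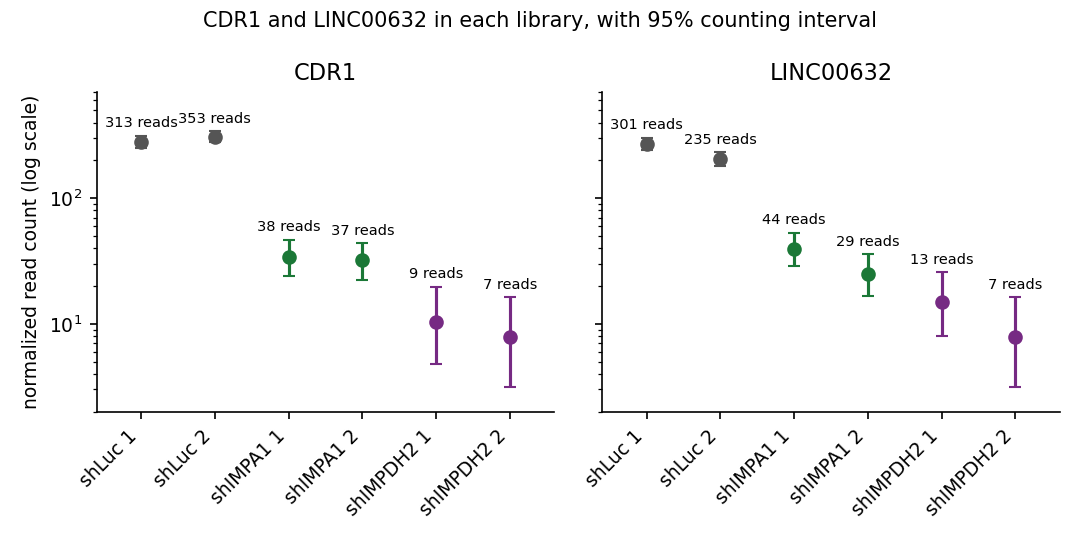
Normalized read counts of CDR1 and LINC00632 (log scale) in each of the 6 libraries, with bars for the exact 95% Poisson counting interval and the number of reads above each point. For both genes the shLuc libraries are highest, the shIMPA1 libraries lie between 25.02 and 39.5, and the shIMPDH2 libraries are lowest, with the widest intervals.

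On the scale of log2(normalized count + 1), the difference between shIMPA1 and shLuc was -3.12 for CDR1 (SE 0.25) and -2.87 for LINC00632 (SE 0.34). As ratios of summed reads, CDR1 was 8.96-fold lower (95% counting interval 7.05 to 11.5) and LINC00632 7.41-fold lower (5.79 to 9.59). These intervals cover counting error only. From the most lowered gene upward, CDR1 held place 71 and LINC00632 place 86 of 17742 genes tested. Of all genes, 30.2% were called in this comparison by limma at an adjusted p under 0.05, 14.0% higher and 16.2% lower. That count of 5361 genes was 2189 without shLuc replicate 1, 2147 without shLuc replicate 2, and 7940 when shIMPA1 replicate 1 was left out. The pair was chosen on this contrast, so nothing is read from its place.

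Between shIMPDH2 and shLuc the log2 difference was -4.88 for CDR1 (SE 0.25) and -4.31 for LINC00632 (SE 0.34). CDR1 was 32.4-fold lower (95% counting interval 19.8 to 57.0) and LINC00632 20.9-fold lower (13.4 to 34.4), at places 6 and 12 from the most lowered gene. Here 17.0% of all genes were called, 7.86% higher and 9.15% lower, and this count of 3018 genes was 773 to 998 without any 1 of the 4 libraries. The upper ends of the intervals are wide because the 2 shIMPDH2 libraries held only 16 CDR1 and 20 LINC00632 reads in all.

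The knockdowns were also set against each other, with no control library in the comparison. CDR1 was 3.62-fold lower in shIMPDH2 than in shIMPA1 (95% counting interval 2.09 to 6.65, log2 difference -1.76, SE 0.25) and LINC00632 2.82-fold lower (1.699 to 4.88, log2 difference -1.45, SE 0.34). They held places 267 and 447 from the most lowered gene, and 26.1% of genes were called, 13.5% higher and 12.6% lower, a count of 4627 that was 1875 and 1430 without shIMPDH2 replicate 1 and 2 and 7052 without shIMPA1 replicate 1. The LINC00632 difference was -1.02 without shIMPDH2 replicate 2. The 3 comparisons share libraries and are not independent of each other.

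The balance between the genes was read from their own reads, whatever their level. CDR1 made up 51.0% of the pair's 614 reads in shLuc replicate 1 (exact Clopper-Pearson 95% interval 47.0 to 55.0) and 60.03% of 588 in replicate 2 (55.9 to 64.0). In shIMPA1 the shares were 46.3% of 82 reads (35.2 to 57.7) and 56.1% of 66 (43.3 to 68.3). In shIMPDH2 they were 40.9% of 22 reads (20.7 to 63.6) and an equal split, 7 of 14 (23.0 to 77.0). The shLuc intervals did not overlap each other, while each of the 4 knockdown intervals overlapped both of them. The intervals cover counting error within a library only, and a difference in balance between the groups was not tested. The log2 difference of CDR1 minus that of LINC00632 was -0.25, -0.57 and -0.31 in the 3 comparisons, beside SEs of 0.25 and 0.34 for the single differences.

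Per length of merged exons the genes stood far apart, a gap that rests on the length taken for LINC00632. CDR1 had 14.5 and 16.1 reads per kb of exon and per library size (RPKM) in shLuc, 1.84 and 1.699 in shIMPA1, then 0.548 and 0.395 in shIMPDH2. LINC00632, over its 28876 merged exonic bases, had 0.380 and 0.293 RPKM in shLuc, 0.0581 and 0.0364 in shIMPA1, then 0.0216 and 0.0108 in shIMPDH2. The LINC00632 value depends on the merged length, since no single transcript uses all of these exons.

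Markers of other cell types were measured beside this difference. The cells expressed the luminal prostate markers, with all 10 genes of that list present. Their summed level was 5016 to 5032 CPM (reads scaled to library size) in shLuc, 4032 to 4288 in shIMPA1 and 3909 to 3915 in shIMPDH2. The keratin gene KRT8 was the largest part of this sum. It had 71625 and 63788 normalized reads in shLuc, 58623 and 52886 in shIMPA1, then 40650 and 46452 in shIMPDH2. The sum is therefore no measure of the luminal genes in general. Of 15 neuronal and neuroendocrine markers 10 were listed, summing to 683 to 735 CPM in shLuc, 713 to 802 in shIMPA1 and 631 to 640 in shIMPDH2. NCAM1, INSM1, STMN2 and DCX, which help define neuroendocrine or neuronal cells, were not among the genes listed. Of 10 fibroblast and endothelial markers 5 were listed, at 47.6 to 53.8 CPM in shLuc, 13.7 to 18.5 in shIMPA1 and 11.3 to 11.6 in shIMPDH2. COL1A2, PDGFRB, PECAM1, VWF and CDH5 were not among the genes listed, and most of the drop in the sum was in VIM, the intermediate filament gene vimentin, at 658 and 753 normalized reads in shLuc, 40.4 and 43.1 in shIMPA1, then 61.2 and 70.9 in shIMPDH2. This marker sum was lower in both knockdowns, as CDR1 and LINC00632 were. Between the knockdowns VIM did not follow the pair and lay higher in shIMPDH2, while LUM and COL1A1 lay lower there. The part of these markers in the CDR1 and LINC00632 levels was not tested.

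Within 2 Mb of the locus GENCODE places 46 other genes, 15 of them protein coding, and the table lists 4, of which 3 are described here. LDOC1, a gene derived from a retrotransposon Gag sequence, lies 382 kb away and had 1858 and 2242 normalized reads in shLuc, 488 and 396 in shIMPA1, then 482 and 430 in shIMPDH2. Both knockdowns lay well below shLuc and overlapped each other. LDOC1 fell in shIMPA1 (log2 difference -2.21 with an SE of 0.15, limma adjusted p = 4.19e-06) and in shIMPDH2 (-2.16, adjusted p = 9.38e-06), and its value between the knockdowns was 0.05 (adjusted p = 0.840).

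AL589987.1, a processed pseudogene 617 kb away, had 134 and 124 normalized reads in shLuc, 27.8 and 21.6 in shIMPA1, then 30.04 and 21.4 in shIMPDH2. It fell in both knockdowns (-2.35, limma adjusted p = 0.000160, and -2.30, adjusted p = 0.000318), with 0.05 between them (adjusted p = 0.919). A pseudogene can share reads with its parent gene, so its counts are uncertain. The LDOC1 and AL589987.1 calls against shLuc held in every fit without 1 library. The further step down from shIMPA1 to shIMPDH2 that CDR1 and LINC00632 showed was not called in either neighbour, and the difference between the genes was not tested.

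FGF13, a fibroblast growth factor homologous factor gene 1487 kb away, went the other way from these, with 113 and 137 normalized reads in shLuc, 175 and 273 in shIMPA1, then 295 and 276 in shIMPDH2. It rose in shIMPA1 (0.80, limma adjusted p = 0.0160, lost without either shLuc library) and in shIMPDH2 (1.18, adjusted p = 0.00380, lost without shLuc replicate 1 or shIMPDH2 replicate 1). Over the other 585 tested genes of chromosome X, 21.2% fell in shIMPA1, 10.4% in shIMPDH2 and 11.5% between the knockdowns, beside 16.2%, 9.15% and 12.6% of all genes.

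**Figure D3:**
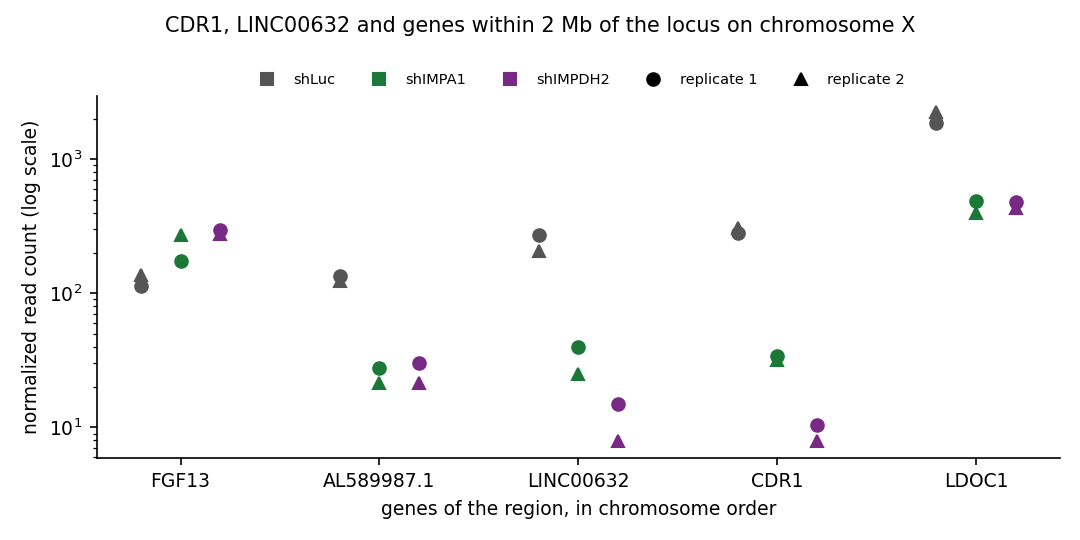
Normalized read counts (log scale) of 5 listed genes of the region in chromosome order, with colour for the group and shape for the replicate. LDOC1 and AL589987.1 lie lower in both knockdowns at about the same level, CDR1 and LINC00632 step down from shLuc to shIMPA1 and again to shIMPDH2, and FGF13 is lowest in shLuc.

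Likeness of pattern was measured over the 6 libraries as the root-mean-square difference of log2(value + 1), each gene centred on its own mean, among 13365 genes with a symbol and a mean of at least 2 CPM. The gene most like CDR1 was LINC00632 and the reverse also held, at 0.35. The next 5 genes were the same for both, namely LUM, IFITM1, ESPN, STC1 and NMB, at 0.65 to 0.69 from CDR1 and 0.44 to 0.60 from LINC00632. LUM, which encodes the matrix proteoglycan lumican, had 187 and 157 normalized reads in shLuc, 51.2 and 15.5 in shIMPA1, then 11.6 and 11.2 in shIMPDH2. IFITM1, an interferon-induced membrane protein gene, had 135 and 151, then 24.2 and 6.04, then 9.24 and 5.62.

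STC1, the hormone gene stanniocalcin, had 286 and 277 normalized reads in shLuc, 94.2 and 55.2 in shIMPA1, then 30.04 and 23.6 in shIMPDH2. ESPN, the actin-bundling gene espin, had 248 and 256, then 51.2 and 32.8, then 27.7 and 22.5. NMB, the peptide gene neuromedin B, had 607 and 605, then 63.7 and 47.5, then 43.9 and 50.6, so its knockdown groups overlapped. None of these 5 genes lies on chromosome X, and they were chosen for their pattern, so it carries no test.

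Mature microRNAs were not measured, but the genes that host them and the factors known to act on miR-7 or miR-671 were. MIR7-1 lies in an exon of HNRNPK on chromosome 9 and MIR671 in an exon of CHPF2 on chromosome 7. HNRNPK, an abundant RNA-binding protein gene, had log2 fold changes of 0.06 in shIMPA1 and -0.03 in shIMPDH2 (limma adjusted p = 0.802 and 0.916). CHPF2, a chondroitin synthase gene, stood at 0.35 and 0.16 (adjusted p = 0.188 and 0.612), with shIMPA1 libraries of 1212 and 1997 normalized reads against 1246 and 1192 in shLuc.

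MIR7-3HG, whose intron holds MIR7-3 on chromosome 19, had 169 and 165 normalized reads in shLuc, 210 and 181 in shIMPA1, then 84.3 and 128 in shIMPDH2. It fell in shIMPDH2 (-0.68, limma adjusted p = 0.0492), a call lost without shLuc replicate 1 or 2 or shIMPDH2 replicate 1. It also fell from shIMPA1 to shIMPDH2 (-0.90, adjusted p = 0.0108), a call lost without shIMPDH2 replicate 1. OIP5-AS1, the long noncoding RNA Cyrano, which directs the destruction of miR-7, had 9486 and 8386 normalized reads in shLuc, 7984 and 7317 in shIMPA1, then 7013 and 6593 in shIMPDH2. Both knockdowns lay below shLuc, by -0.22 and -0.39 on the log2 scale, and neither passed the test (limma adjusted p = 0.211 and 0.0565).

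Of the 13 genes of miR-7 and miR-671 control, 1 rose and 1 fell in shIMPA1, 0 rose and 1 fell in shIMPDH2, and 0 rose and 2 fell between the knockdowns. These are 15.4%, 7.69% and 15.4% of the list, below the 30.2%, 17.0% and 26.1% of all genes, and the medians of 0.06, -0.03 and -0.09 lay near the 0.02, -0.01 and 0.00 of all genes. The counts against shLuc were 0 without either shLuc library, and in shIMPDH2 also without shIMPDH2 replicate 1. Without shIMPDH2 replicate 1 or 2 the count between the knockdowns was 1, and without shIMPA1 replicate 1 it was 4. MSI2, an RNA-binding protein that acts on miR-7 processing together with HuR, rose in shIMPA1 (0.51, limma adjusted p = 0.0103, lost without either shLuc library). ELAVL1, which encodes HuR, fell there (-0.39, adjusted p = 0.0451, lost without either shLuc library or shIMPA1 replicate 2). The core processing genes DROSHA, DGCR8, DICER1, XPO5 and AGO2 and the ligase genes ZSWIM8 and CUL3, which act in target-directed microRNA decay, were not called in any of the 3 comparisons, with log2 values between -0.16 and 0.28.

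Proteins that make, export or clear circular RNAs were read from a list of 19 genes. In shIMPA1 2 rose and 6 fell (42.1%, median -0.06), in shIMPDH2 1 rose and 2 fell (15.8%, median -0.05), and between the knockdowns 3 rose and 3 fell (31.6%, median 0.10), beside 30.2%, 17.0% and 26.1% of all genes called. The shIMPA1 count of 8 genes dropped to 3 without shLuc replicate 1 and to 1 without shLuc replicate 2, and the shIMPDH2 count dropped to 0 without any 1 of its 4 libraries. Between the knockdowns the count was 3 without shIMPDH2 replicate 1 or 2.

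QKI, the quaking protein that brings exon ends together for circle formation, had 1035 and 1088 normalized reads in shLuc, 1289 and 1329 in shIMPA1, then 763.6 and 762.5 in shIMPDH2. It fell from shIMPA1 to shIMPDH2 (-0.78, SE 0.12, limma adjusted p = 0.000857), a call kept without any 1 library. Against shLuc it stood at 0.30 in shIMPA1 (adjusted p = 0.0700) and fell in shIMPDH2 (-0.48, adjusted p = 0.0173), and that call was lost without any 1 of the 4 libraries. ESRP1, an epithelial splicing regulator, had 1540 and 1720 normalized reads in shLuc, 3703 and 4134 in shIMPA1, then 2016 and 2003 in shIMPDH2. ESRP1 rose in shIMPA1 (1.27, limma adjusted p = 4.15e-05) and fell from there to shIMPDH2 (-0.96, adjusted p = 0.000279), both kept without any 1 library.

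The helicases linked to nuclear export of circular RNAs moved in opposite directions in shIMPA1. In shIMPDH2 neither was called against shLuc (DDX39A -0.09 and DDX39B -0.25, limma adjusted p = 0.632 and 0.175). DDX39A, linked to short circles, fell in shIMPA1 (-0.50, limma adjusted p = 0.00891, lost without shLuc replicate 2), while DDX39B, linked to long ones, rose (0.45, adjusted p = 0.0157, lost without either shLuc library). From shIMPA1 to shIMPDH2 DDX39B fell (-0.71, adjusted p = 0.00190) and kept its call without any 1 library. DHX9, a helicase that unwinds the paired repeats behind circles, fell in shIMPA1 (-0.43, limma adjusted p = 0.0242, lost without either shLuc library).

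Of 24 genes reported elsewhere as miR-7 targets, 2 rose and 3 fell in shIMPA1, 2 rose and 3 fell in shIMPDH2, and 4 rose and 3 fell between the knockdowns. These are 20.8%, 20.8% and 29.2% of the list, beside 30.2%, 17.0% and 26.1% of all genes, with medians of 0.02, -0.01 and -0.02. Without shLuc replicate 1 or 2 the shIMPA1 count was 2, and without shIMPA1 replicate 1 it was 9. The shIMPDH2 count was 2 without any 1 of its 4 libraries. Between the knockdowns it was 1 without shIMPDH2 replicate 1 or 2 and 11 without shIMPA1 replicate 1.

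IRS1, the insulin receptor substrate, had 950 and 1049 normalized reads in shLuc, 1455 and 1135 in shIMPA1, then 528 and 463 in shIMPDH2. It fell in shIMPDH2 (-1.01, limma adjusted p = 0.00108) and was not called in shIMPA1 (0.36, adjusted p = 0.0858), and the knockdowns differed (-1.38, adjusted p = 0.000117). XRCC2, a recombination repair gene, fell in shIMPA1 (-1.41, limma adjusted p = 0.000903), with 1816 and 1562 normalized reads in shLuc against 841 and 474. These calls against shLuc and the IRS1 call between the knockdowns were kept without any 1 library.

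The growth factor receptor genes on the target list were called in shIMPA1. EGFR fell from 467 and 472 normalized reads in shLuc to 360 and 283 in shIMPA1 (-0.56, limma adjusted p = 0.0177), and IGF1R rose from 287 and 261 to 399 and 430 (0.59, adjusted p = 0.0127). Both calls were lost without either shLuc library, and neither gene was called in shIMPDH2 (-0.23 and 0.01, adjusted p = 0.321 and 0.969). KLF4, a transcription factor, rose in shIMPDH2 (0.54, limma adjusted p = 0.0349), and so did IRS2 (0.43, adjusted p = 0.0414), and each lost its call without any 1 of the 4 libraries. MTOR, YY1, RELA and PSME3 were not called in any of the 3 comparisons.

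Silencing of LINC00632 through the Polycomb mark has been described in melanoma, together with an effect of CDR1as on the RNA-binding protein IGF2BP3, so 19 genes of Polycomb, DNA methylation and the IGF2BP family were read as a list. In shIMPA1 3 rose and 8 fell (57.9%, median -0.04), in shIMPDH2 0 rose and 3 fell (15.8%, median -0.22), and between the knockdowns 5 rose and 4 fell (47.4%, median -0.17), where 30.2%, 17.0% and 26.1% of all genes were called. Without shLuc replicate 1 or 2 the shIMPA1 count of 11 dropped to 3 and 2, the shIMPDH2 count was 1 or 2 without any 1 of its libraries, and the count between the knockdowns was 3 without shIMPDH2 replicate 1 or 2.

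EZH2, the Polycomb methyltransferase gene, had 2805 and 2875 normalized reads in shLuc, 2379 and 1406 in shIMPA1, then 2249 and 2207 in shIMPDH2. It fell in shIMPA1 (-0.63, limma adjusted p = 0.0308), a call lost without either shLuc library or shIMPA1 replicate 2, and was not called in shIMPDH2 (-0.35, adjusted p = 0.246). Its partner gene SUZ12 fell in shIMPA1 (-0.46, adjusted p = 0.0127, lost without either shLuc library). DNMT1, the maintenance DNA methyltransferase gene, fell in shIMPA1 (-1.34, limma adjusted p = 0.00255), with 2988 and 1485 normalized reads against 4935 and 5799, and ranged from -1.85 without shIMPA1 replicate 1 to -0.84 without replicate 2. KDM6B, which removes the Polycomb mark, rose in shIMPA1 (0.64, limma adjusted p = 0.00610, lost without either shLuc library) and fell in shIMPDH2 (-0.57, adjusted p = 0.0190, lost without either shLuc library or shIMPDH2 replicate 2).

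IGF2BP2 had 449 and 506 normalized reads in shLuc, 480 and 475 in shIMPA1, then 247 and 229 in shIMPDH2. It fell in shIMPDH2 (-0.998, SE 0.14, limma adjusted p = 0.000807) and stood at 0.00 in shIMPA1 (adjusted p = 0.988), with the knockdowns apart by -1.001 (adjusted p = 0.000542). IGF2BP1 fell from shIMPA1 to shIMPDH2 (-0.87, adjusted p = 0.000769). These IGF2BP1 and IGF2BP2 calls were kept without any 1 library, and IGF2BP3 was not called in any of the 3 comparisons.

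**Figure D4:**
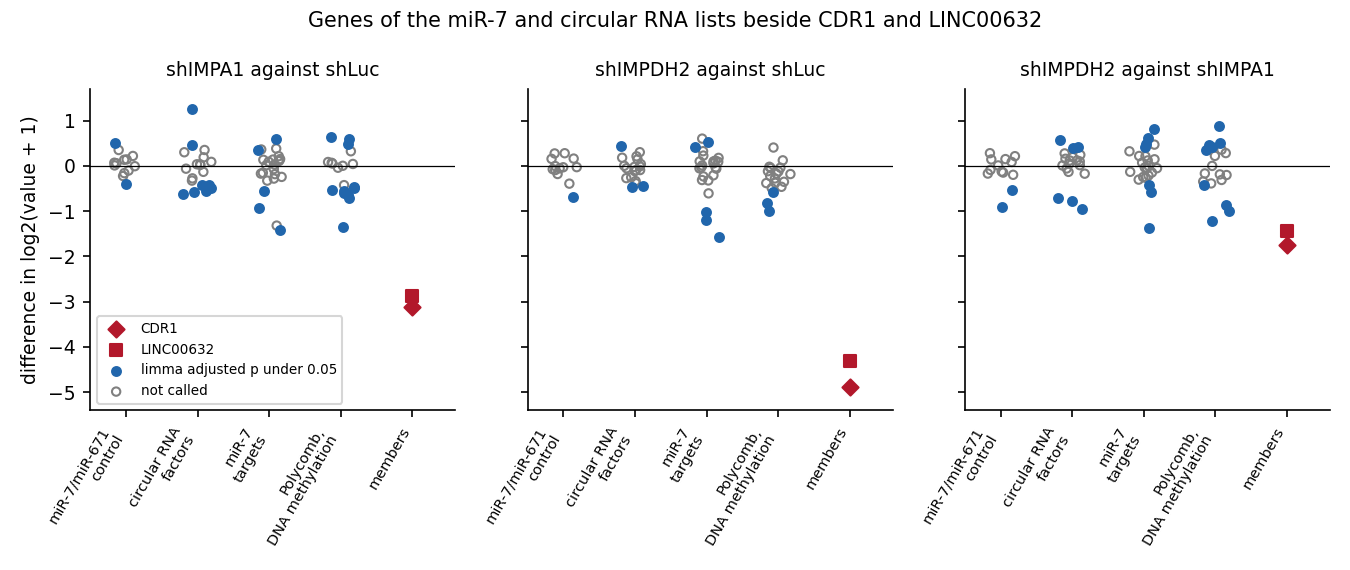
Differences in log2(value + 1) for the genes of 4 lists (circles, filled where the limma adjusted p was under 0.05) beside CDR1 (red diamond) and LINC00632 (red square), in the 3 comparisons. Genes of these lists lie between -1.6 and 1.3, and both members lie lower than every gene of these lists in each comparison. The pair was chosen for its differences, so nothing is read from this order. Between the knockdowns LINC00632, at -1.45, lay close to IRS1, at -1.38, and stood at -1.02 without shIMPDH2 replicate 2.

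Neuronal genes were read as a list because the locus is most active in brain. Of the 10 genes listed, 2 rose and 2 fell in shIMPA1, 0 rose and 4 fell in shIMPDH2, and 1 rose and 3 fell between the knockdowns, 40.0% of the list each time against 30.2%, 17.0% and 26.1% of all genes, with medians of 0.22, -0.34 and -0.84. The shIMPA1 count was 1 and 2 when either control library was left out and 6 when shIMPA1 replicate 1 was, and the shIMPDH2 count was 2 without any 1 of its 4 libraries. CHGA, the secretory granule gene chromogranin A, had 540 and 596 normalized reads in shLuc, 1283 and 1129 in shIMPA1, then 261 and 298 in shIMPDH2. CHGA rose in shIMPA1 (1.08, limma adjusted p = 0.000290) and fell in shIMPDH2 (-1.02, adjusted p = 0.000702), whereas CDR1 and LINC00632 were lower in both. NEFL, the light neurofilament gene, fell in shIMPDH2 (-1.11, limma adjusted p = 0.000560) and stood at -0.11 in shIMPA1 (adjusted p = 0.594). The CHGA and NEFL calls were kept without any 1 library.

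Of 10 luminal genes, 2 rose and 3 fell in shIMPA1, 3 rose and 2 fell in shIMPDH2, and 3 rose and 0 fell between the knockdowns. These are 50%, 50% and 30% of the list, beside 30.2%, 17.0% and 26.1% of all genes. Without shLuc replicate 2 the shIMPA1 count of 5 was 3, and the shIMPDH2 count was 3 without either shLuc library or without shIMPDH2 replicate 2. TMPRSS2, an androgen-induced protease gene, rose in both (1.55 and 2.01, limma adjusted p = 0.000576 and 0.000197). From the fibroblast and endothelial list 4 genes were tested, while its endothelial genes PECAM1, VWF and CDH5 were not among the genes listed. Of the 4, 3 fell in shIMPA1 and 3 in shIMPDH2. This is 75% of those tested each time, beside the 16.2% and 9.15% of all genes that fell. VIM (-4.04 and -3.40) and LUM (-2.55 and -3.80) fell in both, while the collagen gene COL3A1 was called in the first and COL1A1 in the second. The COL3A1 call was lost without either shLuc library and the COL1A1 call without any 1 of the 4 libraries.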

How the data were processed

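Poly(A) RNA-seq of 6 libraries gave 1 deposited table. The submitters' processing notes name Trimmomatic 0.36, STAR 2.5.2b, Subread 1.5.2 and the build GRCh38, and per the labels' protocols only unique reads in exons were counted. The deposited signal values are gene counts over a size factor for each library, which the values themselves show, and whole reads were recovered from them within 0.05 reads. GENCODE 29 held 17750 of 17811 identifiers and names ENSG00000184258 CDR1, a symbol that the table of gene names gives to another identifier. LINC00632 and both microRNAs matched RefSeq entries by name, CDR1 did not.

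Because the values are not raw counts, limma 3.58.1 (R 4.3.3) with a mean-variance trend was fitted to log2(value + 1) of all 6 libraries, with 3 residual degrees of freedom, for the 17742 genes that reached 10 in 2 or more libraries (69 left out). Calls are Benjamini-Hochberg adjusted p-values under 0.05. Fold changes on this scale understate the change of low genes. edgeR 4.0.16 and DESeq2 1.42.0 on recovered reads, other pseudocounts, filters, scalings and left-out libraries were alternatives. The genes named are the pair, the hairpin targets, every listed neighbour within 2 Mb, the 6 most like patterns of each gene, and members of 7 lists, up to 8 per comparison by adjusted p or described by role. Some genes that met this rule are counted but not reported here by name. The members and lists were chosen with earlier results of these data known. The deposited table also has log2 fold changes and p-values of the authors for a comparison its header does not name, and these were not used.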

Additional observations from a re-analysis of the deposited data

How the results depend on the processing

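CDR1 and LINC00632 stayed lower in the same direction in all 3 comparisons under every alternative run. Settings that change only the filter, the trend, the replicate block or the groups fitted leave a gene's difference as it is. They are therefore no check of these values. Adding 5 in place of 1 before the logarithm moved CDR1 to -2.98, -4.41 and -1.43 (shIMPA1 and shIMPDH2 against shLuc, then shIMPDH2 against shIMPA1). Leaving out 1 library gave CDR1 values of -3.19 to -3.06, -5.06 to -4.70 and -1.94 to -1.58, and LINC00632 values of -3.19 to -2.55, -4.74 to -3.89 and -1.87 to -1.02, in the same order. The count of called genes, 5361, 3018 and 4627, fell to 3508, 1727 and 2909 without a mean-variance trend, and the cause was not tested. With only the 2 groups compared, the count rose to 6382 for shIMPDH2 against shLuc. It fell to 4085 for shIMPA1 against shLuc and to 3422 between the knockdowns, again with the cause not tested. Without 1 library, the counts ranged from 2147 to 7940, from 773 to 998 and from 1430 to 7052. Labels share replicate numbers but give no pairing, and same-numbered libraries did not deviate together (r = 0.0418, -0.0488 and 3e-04). With a replicate block the counts were 5298, 2939 and 4537. The values of CDR1 and LINC00632 cannot move under it, because every group has 1 library of each replicate number. edgeR called 5480, 3010 and 4551, and DESeq2 called 4685, 2625 and 3978. Of 115 calls of genes named or on the lists, 45 held in every alternative and 70 did not. FOS, a reported miR-7 target that was not called between the knockdowns, was called in opposite directions without 1 shIMPA1 library, at -0.47 (limma adjusted p = 0.004055) without replicate 2 and 0.91 (limma adjusted p = 2.776e-09) without replicate 1. With 7 to 13 reads per gene in each shIMPDH2 library, depth limits the precision of every fold change of CDR1 and LINC00632 in that group.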
